A study of Chlorocebus sabaeus with 10 samples.

Results

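miR-126, miR-139, miR-218 and miR-511 are miRNAs linked to endothelial cells and to the macrophages that lie beside them in the liver. They were described here by the 7 mature names hsa-miR-126-3p, hsa-miR-126-5p, hsa-miR-139-5p, hsa-miR-139-3p, hsa-miR-218-5p, hsa-miR-511-5p and hsa-miR-511-3p, written below without the species prefix hsa for human under which the table lists them. The names were chosen by list, all 7 were found in the count table among 2588 mature names, and all 7 had reads. The table came from small RNA sequencing of liver tissue of 10 female vervet monkeys (Chlorocebus sabaeus). A high fructose (HFr) diet was given to 5 animals and chow to the other 5, and every animal had eaten chow before the study. Columns for single libraries are named by a running number alone, which fits no title or description of a sample. No library could therefore be placed in the HFr or the chow group, and the question of the design, which hepatic miRNAs differ by diet, was not addressed here. Every value below is the authors' count pooled over all libraries, with no replicates, no SD and no test of diet, and it need not hold for each animal.

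A miRNA gene is transcribed into a hairpin, and a mature strand can be cut from its 5p arm and from its 3p arm. The strand that is loaded into an Argonaute protein pairs with messenger RNAs through its seed and lowers their translation or stability, while the other strand is usually degraded. In the human genome mir-126 lies in an intron of EGFL7, a gene of endothelial cells, and miR-126-3p is known to favor signaling by vascular endothelial growth factor by repressing the inhibitors SPRED1 and PIK3R2. mir-139 lies in an intron of PDE2A, a phosphodiesterase gene. mir-218-1 and mir-218-2 lie in introns of SLIT2 and SLIT3, whose proteins guide growing axons and vessels, and miR-218-5p is known to repress the SLIT receptor ROBO1. mir-511 lies in an intron of MRC1, the mannose receptor of macrophages and liver sinusoidal endothelial cells. The vervet gene table lists all 5 host genes as protein coding (assembly mChlSab1.0.hap1) and 0 genes of type miRNA, so the hairpins were not placed in the vervet genome. Host transcripts were not analysed here and the cell of origin was not measured, and a read count of whole tissue cannot tell fewer cells of a type from less RNA per cell.

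The 4 miRNAs differed by more than 2 orders of magnitude in abundance, and miR-126 held nearly all of their reads. miR-126-3p had 20344 reads (exact 95% Poisson interval 20065 to 20626). This was 0.996% of the 2043164 reads kept with 1 row per name (95% Wilson interval 0.982 to 1.01%). Shares below refer to that total unless stated otherwise, and all rows of the table together hold 2669761 reads. miR-126-5p, which comes from the same hairpin and is known in mouse to repress Dlk1, an inhibitor of Notch signaling, had 2193 reads (2102 to 2287), or 0.107% (0.103 to 0.112%). Together the 7 names held 22998 reads, or 1.13% (1.11 to 1.14%). miR-126-3p accounted for 88.5% of that sum and miR-126-5p for 9.54%. The other 5 names came to 461 reads, or 0.0226% of that total (0.0206 to 0.0247%). Intervals cover counting error alone, and reads amplified by PCR without molecular identifiers are not independent molecules.

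miR-139-5p was the most abundant of the remaining names, with 202 reads (175 to 232) and a share of 0.00989% (0.00861 to 0.0113%). The opposite strand of that hairpin, miR-139-3p, had 62 reads (47.5 to 79.5). For miR-218-5p 73 reads were found (57.2 to 91.8). miR-511-3p, the strand reported from mouse to be active in macrophages, had 66 reads (51.0 to 84.0), and miR-511-5p had 58 reads (44.0 to 75.0). These 4 names stood at about the same level. Among them the widest ratio, that of miR-218-5p to miR-511-5p, was 1.26 (exact binomial interval 0.879 to 1.81), so no order among miR-218-5p, miR-511-3p, miR-139-3p and miR-511-5p was resolved with 1 row per name. With both rows of miR-218-5p added, as described below, it exceeded miR-511-3p by 2.21-fold, miR-139-3p by 2.35-fold and miR-511-5p by 2.52-fold. No order was then resolved among the other 3. If the rows list the same reads, adding them counts these more than once and the ratios do not hold.

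**Figure D1:**
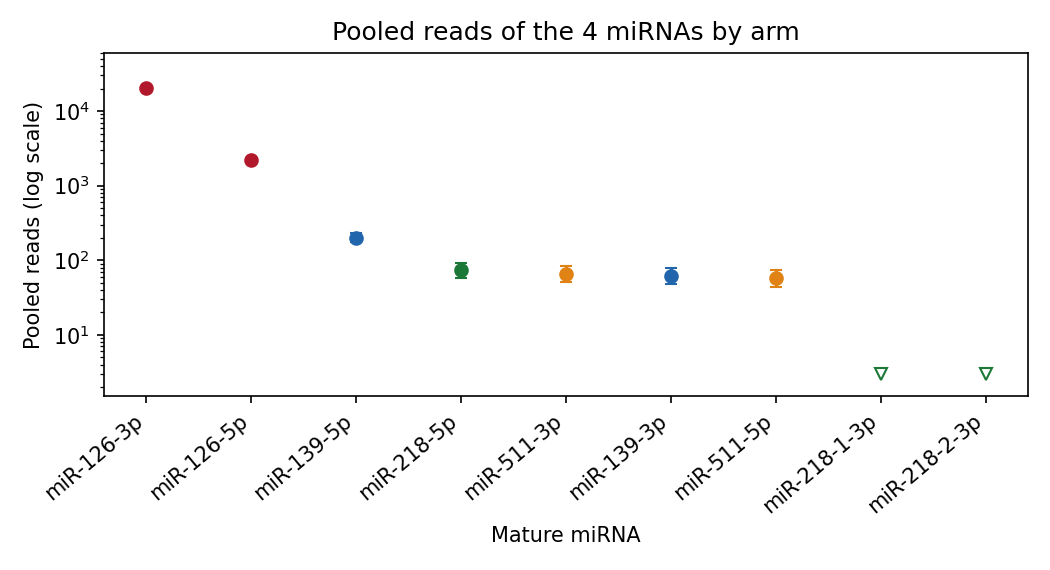
Pooled reads (log scale) of the 7 mature names and of the 3p strands of both mir-218 hairpins. Points are counts and bars exact 95% Poisson intervals, and the open triangles mark names with 0 reads at the one-sided upper limit of 3 reads. miR-126-3p and miR-126-5p stand at 20344 and 2193 reads and miR-139-5p at 202, while the next 4 names lie between 58 and 73 with overlapping bars.

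The steps above that level were clear of counting error. miR-126-3p exceeded miR-126-5p by 9.28-fold (8.88 to 9.70), miR-126-5p exceeded miR-139-5p by 10.9-fold (9.40 to 12.6), and miR-139-5p exceeded miR-218-5p by 2.77-fold (2.11 to 3.67). The last of these depends on how reads of miR-218-5p are counted. This name stands on 2 rows, 1 for each hairpin, and each row holds 73 reads. Such equal rows were common, since of 41 names on 2 precursors with at least 10 reads, 18 carried the same count in both. Others were nearly equal, such as miR-16-5p (26518 and 26504 reads) and miR-26a-5p (43386 and 43403 reads). Rows that list the same reads under each precursor would look like this, and adding them would count reads more than once. Only if the rows of miR-218-5p hold different reads did it have 146 reads, and miR-139-5p then exceeded it by 1.38-fold. The dominant strand of mir-126, miR-126-3p, had 101 times the reads of miR-139-5p (87.7 to 116), 279 times those of miR-218-5p (222 to 356) and 308 times those of miR-511-3p (242 to 399). Adapter ligation favors some sequences over others, so these ratios compare reads and not molecules per cell.

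In the ranking of all 680 names with reads, miR-126-3p was number 19. It stood between let-7c-5p (21435 reads), a member of the let-7 family, and miR-30c-5p (18020 reads), and 2.65% of the names had more reads. Above it, miR-199a-3p and miR-199b-3p held the same count (22258 reads), and whether these are the same reads was not tested. If different names list the same reads, the ranking and the total count them more than once. miR-126-5p was number 53, between miR-29c-3p (2365 reads), which is known to repress collagen genes, and miR-17-5p (2163 reads) of the growth-related miR-17-92 cluster. miR-139-5p shared number 158 with miR-342-3p, which also had 202 reads. The name next above these was miR-299-3p with 218 reads. The 4 remaining members held numbers 229, 234, 239 and 243, so that between 33.5% and 35.6% of the detected names had more reads than each. Next to miR-218-5p (number 229) were miR-342-5p (74 reads) and miR-376c-3p (71 reads). miR-511-3p stood between miR-30c-2-3p (68 reads) and miR-598-3p (66 reads), miR-139-3p between miR-7-1-3p (63 reads) and miR-323b-3p (62 reads), and miR-511-5p between miR-215-5p (58 reads) and miR-1273d (56 reads). Counts of the neighbors of miR-139-5p and of these 4 names lay inside the Poisson intervals of the members, as did that of miR-17-5p for miR-126-5p, so the ranks from miR-126-5p down are approximate.

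**Figure D2:**
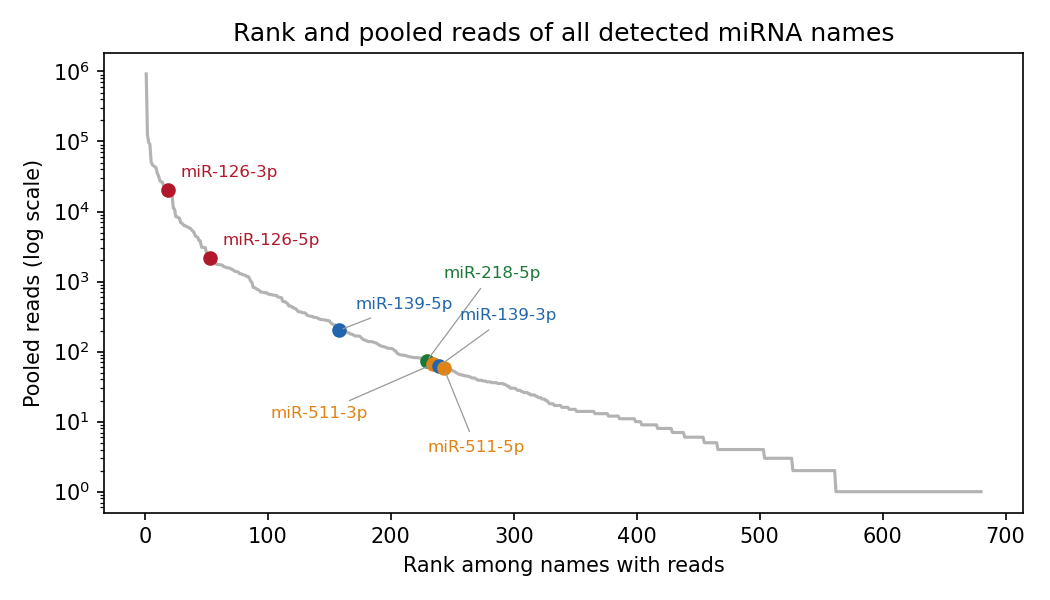
Pooled reads (log scale) against rank for the 680 names with reads (gray line), with the 7 members as colored points. miR-126-3p and miR-126-5p lie on the steep left part at ranks 19 and 53, miR-139-5p lies at rank 158, and the other 4 members lie close together at ranks 229 to 243.

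The hairpins differed in how their reads were divided between the arms. This comparison does not depend on how strongly the hairpin itself is expressed where both strands come from that hairpin alone. Adapter ligation and differences from the human sequence can affect the arms unequally. Arm shares therefore compare reads and not strands in the cell. In mir-126, with 20344 reads from the 3p arm and 2193 from the 5p arm, the 3p arm held 90.3% (Wilson interval 89.9 to 90.6%). In mir-139, 202 reads came from the 5p arm and 62 from the 3p arm, a 5p share of 76.5% (71.0 to 81.2%). In mir-511 the arms were nearly even, with 66 reads from 3p and 58 from 5p, a 3p share of 53.2% (44.5 to 61.8%). The interval for mir-511 includes 50%, and neither arm could be called dominant. For both mir-218 hairpins the 5p arm was listed with 73 reads, whereas the 3p strands, miR-218-1-3p and miR-218-2-3p, had 0 reads. The 73 may be the same reads, so how many each hairpin gave is not known. A count of 0 was taken to allow up to 3 reads, or 4.11% of the 73 reads on the opposite arm, a one-sided limit that is lower than the upper bound of the two-sided Wilson interval (5.00%).

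All 3 member hairpins with at least 100 reads gave a larger part of their reads to the minor arm than most hairpins did. Across the 179 hairpins that reached 100 reads and have a name for each arm, the median share of the dominant arm was 99.1% and the lower quartile 92.0%. mir-126, with 90.3%, had 38 hairpins below it and 140 above, and its nearest neighbors were mir-106b (90.1%) and mir-29b-2 (90.6%). mir-139 had 19 hairpins below it and 159 above, and lay between mir-193b (73.6%) and mir-127 (77.9%). mir-511 had 2 hairpins below it, mir-1307 (52.1%) and mir-151a (52.3%), and 176 above. The next higher was mir-455 (53.4%). mir-511 was among 9 hairpins whose arms lay within 2-fold of each other. Its interval was wide because the share rested on 124 reads, so its exact place among the most balanced hairpins was not resolved. Hairpins that share a mature strand are counted separately in this ranking and are not independent. A shared strand may hold reads of each such hairpin, which can raise its share. For example, 307 reads are listed for the 5p arm of both mir-129-1 and mir-129-2, with 1 and 84 reads on the 3p arms.

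**Figure D3:**
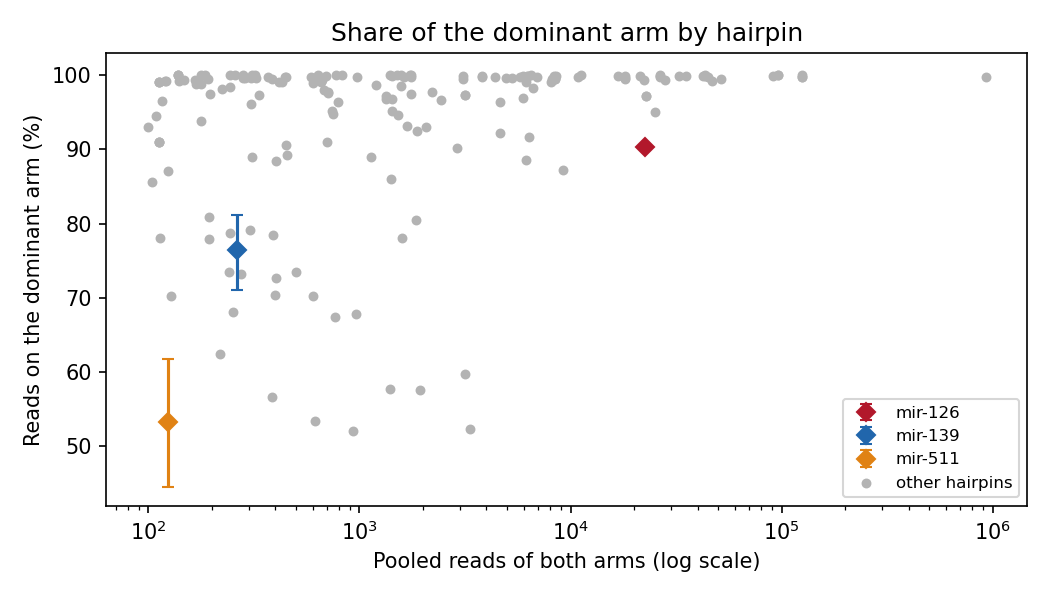
Share of reads on the dominant arm (%) against the pooled reads of both arms (log scale) for 179 hairpins with at least 100 reads. Diamonds are mir-126 (90.3%), mir-139 (76.5%) and mir-511 (53.2%) with 95% Wilson intervals, and gray points are the other hairpins, whose median lies near the top of the plot.

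The hairpins with a lower dominant share than mir-126 had fewer reads than it. Those with the most reads were mir-30e (9256 reads on both arms, 87.3%), mir-22 (6128 reads, 88.5%) and mir-151a (3349 reads, 52.3%). miR-126-5p was the most abundant of 172 names that were the minor arm of a hairpin with at least 100 reads. It had 2193 reads, against 2063 for miR-122-3p, the minor strand of the hepatocyte hairpin, a ratio of 1.06 whose interval (1.001 to 1.129) nearly reached 1. miR-151a-3p followed with 1597 reads, miR-28-3p with 1271 and miR-30a-3p with 1237. As minor arms, miR-139-3p (62 reads) had 54 such names above it and miR-511-5p (58 reads) had 55.

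For mir-218 the minimum of 100 reads was not met. With a minimum of 10 reads, 279 hairpins qualified and 66 of them had 0 reads on the minor arm. Of the 100 hairpins between 10 and 100 reads, 46 had 0 reads on that arm. These include both mir-218 hairpins. A count of 0 on the minor arm was thus frequent across that range, but how frequent it was near the 73 reads of mir-218 was not tested.

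By reads of both arms the order of the hairpins was mir-126 (22537 reads), mir-139 (264), mir-511 (124) and mir-218 (73). mir-126 exceeded mir-139 by 85.4-fold (75.6 to 96.7) and mir-511 by 182-fold (152 to 219). mir-139 exceeded mir-511 by 2.13-fold (1.71 to 2.66). mir-511 exceeded mir-218 by 1.70-fold (1.26 to 2.30), although no strand of mir-511 was separated from miR-218-5p. The 73 reads of miR-218-5p are listed for both mir-218 hairpins and may not be the output of 1 hairpin. Only if its rows hold different reads do its 146 reads exceed the 124 of mir-511, and this last order turns.

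miRNAs of other cell types of the liver were measured in the same table and set the level of the members in context. The members together (1.13% of reads) were far below the hepatocyte list, of which 6 of 6 names had reads and which held 49.8%, led by miR-122-5p (922528 reads) and miR-194-5p (46304 reads). miR-126-3p alone was 45.3-fold lower than miR-122-5p, and 1.13 times (1.11 to 1.15) as abundant as miR-192-5p (17980 reads), another hepatocyte miRNA. The members also had fewer reads than the stellate cell and fibroblast list (5 of 5 names, 3.24%), led by miR-143-3p (42313 reads) and miR-199a-3p (22258 reads). The ratio of members to that list was 0.347 (0.342 to 0.353). The 2 leading names held nearly all reads of that list. Its other names, miR-214-3p (711 reads), miR-199a-5p (635 reads) and miR-145-5p (280 reads), were each below miR-126-3p and miR-126-5p. With all precursor rows added the members held 0.864% and the stellate list 4.17%. Here and below, such sums may count the same reads more than once, because rows of a name were often equal or nearly equal.

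The members together exceeded the lists of blood cells, an order that rested on miR-126. Without miR-126 the members held 0.0226% of reads, below both lists. With miR-126 included, the reads of the members were 1.99 times (1.95 to 2.04) those of the red blood cell list (4 of 4 names, 0.564%). That list was led by miR-486-5p (8488 reads) and miR-451a (2366 reads). That gap narrowed to 0.864% for the members and 0.744% for the red blood cell list when all precursor rows were added. The members had 4.35 times (4.23 to 4.49) the reads of the leukocyte list (7 of 7 names, 0.259%), led by miR-146a-5p (1746 reads) and miR-142-3p (1242 reads). Platelets also carry miR-126, and the part of blood in the reads of miR-126 was not tested. miR-511, whose host gene is expressed in macrophages as well as in sinusoidal endothelium, had fewer reads than 6 of the 7 leukocyte names on either strand, the exception being miR-223-5p with 17 reads. Against the 694 reads of the opposite strand, miR-223-3p, a miRNA of myeloid cells, miR-511-3p had 0.0951 times as many (0.0727 to 0.123). By contrast miR-126-3p exceeded miR-223-3p by 29.3-fold (27.2 to 31.7).

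A list of 11 other miRNAs studied in vessels, which are also expressed in many other cells, held 1.17% of reads with 11 of 11 names present. It was led by miR-24-3p (8151 reads) and miR-92a-3p (6940 reads), of the miR-17-92 cluster. The members together had nearly as many reads as this list (ratio 0.963, 0.946 to 0.981), but the reads of the list were spread over more names. miR-126-3p exceeded miR-92a-3p by 2.93-fold (2.85 to 3.01), miR-10a-5p (3065 reads) by 6.64-fold (6.39 to 6.90) and miR-221-3p (1574 reads), known to act on the KIT receptor in endothelial cells, by 12.9-fold (12.3 to 13.6). miR-139-5p had 0.128 times (0.110 to 0.149) the reads of miR-221-3p. With the reads of all precursor rows added, the list held 1.44% and the members 0.864%. The closeness of the sums thus depended on the way of counting, but adding rows may count the same reads more than once.

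The biliary list (5 of 5 names, 0.0946%) was led by miR-200b-3p (763 reads) and miR-200a-3p (692 reads), and the members exceeded it by 11.9-fold (11.4 to 12.5). The members without miR-126 fell below that list. The list of muscle and nerve miRNAs, tissues other than liver, held 0.0209% with 4 of 5 names present, led by miR-1-3p (284 reads) and miR-9-5p (102 reads), and miR-124-3p had 0 reads. The members as a whole exceeded this list by 53.7-fold (48.8 to 59.3), and with all precursor rows added held 0.864%, against 0.0348% for the list. Without miR-126 the members held 0.0226%, against 0.0209% for the muscle and nerve list. With all precursor rows added they held 0.0200%, against 0.0348%. The order of these low shares thus depended on the way of counting, but adding rows may count the same reads more than once. Cell types were assumed from the lists and not measured.

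**Figure D4:**
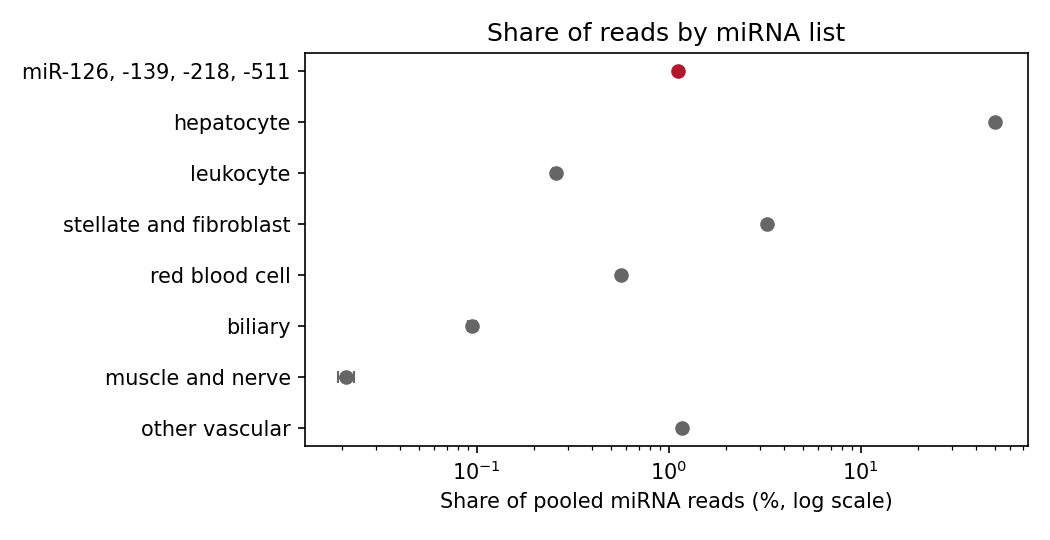
Share of pooled miRNA reads (%, log scale) held by the 7 members (red) and by the lists for other cells (gray), with 95% Wilson intervals that are mostly narrower than the points. The members, at 1.13%, lie beside the other vascular list (1.17%), below the hepatocyte (49.8%) and stellate lists (3.24%) and above the remaining lists. Nearly all reads of the members are of miR-126.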

How the data were processed

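Total RNA from flash frozen liver (Zymo Direct-zol) was made into Illumina TruSeq small RNA libraries. By the study's methods these were run on a GAIIx sequencer, and miRDeep2 gave annotation and abundance. The tools cutadapt 1.10 and Bowtie appear in the submitters' processing notes. The genome build and miRNA release used were not given in the sources used here. The authors deposited raw counts per mature miRNA and precursor in 2948 rows under human names, so vervet strands that differ from human may be undercounted. Their total column, which pools all libraries, was used. The 20 columns of library values match no sample label and were not analysed here. Seen on inspection, 1 library added almost no reads. Deeper libraries weigh more in the total, which gives neither the depth of a sample nor the spread between animals.

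Per name, the precursor row with the highest total was kept (2043164 reads). Shares have 95% Wilson intervals, counts exact Poisson intervals and ratios intervals from the exact binomial, and a count of 0 was taken to allow 3 reads. Arms were compared in hairpins with at least 100 reads. The computation of intervals was tested on simulated data. Members and lists were chosen with earlier results of these data known. Named were the members, their opposite arms, the most abundant name, the next name above and below each in the ranking, and the leading pair of each list. All names of the stellate cell and fibroblast list were also given. The hairpins and the names set against members in other ratios were chosen after their values were seen. Mature sequences were not used here, so names sharing a seed were not compared. Python 3.11.15, NumPy 2.4.6, SciPy 1.17.1 and Matplotlib 3.10.9 were used.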

Additional observations from a re-analysis of the deposited data

How the results depend on the processing

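Across the alternatives that were run, 51 values stayed within their interval, or within 1.5 times the main value for ranks and places, and 38 moved. Most of those that stayed could not have moved, as given at the end of this paragraph, so their number does not measure robustness. Leaving miR-122-5p out of the total multiplied every other share by 1.82. Shares were then 1.82% for miR-126-3p, 0.196% for miR-126-5p, 0.0180% for miR-139-5p, 0.00651% for miR-218-5p, 0.00589% for miR-511-3p, 0.00553% for miR-139-3p and 0.00518% for miR-511-5p. The lists then held 2.05% (members), 8.44% (hepatocyte), 0.471% (leukocyte), 5.91% (stellate and fibroblast), 1.03% (red blood cell), 0.172% (biliary), 0.0382% (muscle and nerve) and 2.13% (other vascular). Adding all precursor rows raised the total, and the shares became 0.762%, 0.0821%, 0.00757%, 0.00547%, 0.00247%, 0.00232% and 0.00217% in the same order of names, and 0.864%, 39.3%, 0.198%, 4.17%, 0.744%, 0.0724%, 0.0348% and 1.44% in the same order of lists. So counted, miR-218-5p had 146 reads. Its ratios became 2.21 to miR-511-3p, 2.35 to miR-139-3p and 2.52 to miR-511-5p, miR-139-5p exceeded it by 1.38-fold, and miR-126-3p by 139-fold. These shifts follow from which rows enter each sum. Where the rows of a name list the same reads, the sums count them more than once. For the members without miR-126, a sum chosen after seeing the data, the share was 0.0411% without miR-122-5p and 0.0200% with all rows added. Places of the hairpins did not move when the minimum was 10 reads. Ranks with at least 10 reads could not move, because every member had at least 58 reads. Values from the lowest row could not move either, because only miR-218-5p stands on 2 rows and these are equal. Reads, ratios and arm shares of names with 1 row were likewise fixed when rows were added.

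Libraries were not left out in turn, because their columns, matched to no sample, entered no computation, so how far 1 library decides a value is not known. No diet test was run. No paired analysis was possible because libraries carry neither a diet nor a replicate number. The comparison by seed was planned and not run. Depth limits names with under 100 reads, whose intervals overlap.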
